A study of Homo sapiens with 12 samples.

Results

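Mitochondrial ribosomal protein genes carry the symbols MRPL, for the large subunit of the mitochondrial ribosome, and MRPS, for its small subunit. All gene symbols in the expression tables that consist of MRPL or MRPS, a number and at most a letter A to C were taken, if their mean over 12 libraries was at least 1 FPKM. FPKM counts sequenced fragments relative to transcript length and to all mapped fragments, so it can be compared between genes. The rule gave 78 genes of 22650 symbols listed in any library, 49 of them MRPL and 29 MRPS. All 78 symbols of that form passed the threshold, so none lay just outside it, and the lowest inside was MRPS18B with a mean of 5.98 FPKM. The RNA came from Panc1 and MiaPaCa2, established human cell lines of pancreatic ductal adenocarcinoma. The 4 groups were Panc1 cells with a knockout of ASAP2, wild-type Panc1 cells, MiaPaCa2 cells with a knockout of ASAP2, and wild-type MiaPaCa2 cells, with 3 libraries each. ASAP2 encodes a GTPase-activating protein for Arf proteins, which act in membrane traffic and at focal adhesions. The labels name no further treatment, and neither the way of knocking out the gene nor a number of clones is stated in them.

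The mitochondrial ribosome translates the few messenger RNAs of the mitochondrial genome, which encode core subunits of the respiratory chain and of ATP synthase. Its ribosomal RNAs are made inside the organelle, while all of its proteins are encoded in the nucleus, made on cytosolic ribosomes and imported. The large subunit holds the peptidyl transferase centre and the exit tunnel, and is anchored to the inner membrane. The small subunit binds the messenger RNA and decodes it. Many of the proteins descend from bacterial ribosomal proteins, and others were added in the course of mitochondrial evolution. Cancer cells of the pancreas use respiration as well as glycolysis, and so depend on this apparatus. The name of a gene does not always give the place of its protein. In structures of the human mitochondrial ribosome the products of MRPS18A and MRPS30 sit in the large subunit, and MRPS36 is now known as a part of the 2-oxoglutarate dehydrogenase complex.

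Between 17958 and 19105 symbols were listed per library and FPKM summed to 360765 to 392610. The depth of sequencing is unknown, since the tables used here hold FPKM alone. Pearson correlations across genes were 0.9936 to 0.9971 within a group, and 0.9679 to 0.9893 between the genotypes of a line. ASAP2 itself had 14.2, 14.5 and 12.7 FPKM in Panc1 knockout libraries, against 38.6, 37.5 and 34.6 FPKM in Panc1 wild-type libraries (limma log2 change -1.36, SE 0.07, adjusted p = 1.5e-08). In MiaPaCa2 it had 12.01, 13.8 and 11.3 FPKM in knockout libraries, against 13.2, 13.6 and 13.8 FPKM in wild-type libraries (limma log2 change -0.13, SE 0.07, adjusted p = 0.2), so its mRNA level does not check the MiaPaCa2 labels. Of 7 epithelial and ductal markers, 6 reached 1 FPKM in Panc1 and 4 in MiaPaCa2, where 1 was at 0. The markers of endothelium, fibroblasts, acinar and endocrine cells stayed under 1 FPKM in all groups, as did the blood cell marker PTPRC. CD68, a lysosomal protein also made outside blood cells, made up nearly all of the blood list, which summed to 160.5 to 165.8 FPKM in Panc1 knockout against 169.8 to 177.4 FPKM in Panc1 wild-type libraries. In MiaPaCa2 it summed to 18.1 to 19.1 FPKM in knockout against 25.6 to 28.4 FPKM in wild-type libraries. The labels do not say whether a group's 3 libraries are separate cultures. The p-values therefore reflect only library-to-library spread, which may be technical. In RNA of whole cultures, fewer cells of a type and less RNA per cell cannot be told apart.

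The promoters are shown because the genes lie on many chromosomes and some of their promoters hold the same short sequences. Of the 78 genes, 69 matched an entry in the RefSeq promoter table, which gives a window of fixed length around each start site in GRCh38.p14, most of it before the start. MRPL2, MRPL10, MRPL13, MRPL15, MRPL21, MRPL23, MRPL35, MRPS28 and MRPS36 had none. The letters CCGGAAG, recognised by ETS factors such as GABPA, occurred on either strand in 29 of the 69 promoters (42%), against 20% of 9917 promoters of tested genes and 10.3% of 35116 promoters in the table. The consensus of YY1 occurred in 14 promoters (20.3%), against 3.43% and 1.44% in those sets, and lay after the start site in 13 of the 14. The SP1 letters GGGCGG occurred in 42 promoters (60.9%), against 71.3% of tested genes and 45% of the table. The E-box CACGTG occurred in 6 promoters (8.7%), against 10.3% and 7.26%. The palindromic consensus of NRF1, a factor named for nuclear genes of respiration, occurred in 1 promoter (1.45%), against 2.34% and 1.24%. These shares describe letters in a window and were not tested. Each of the following is the 200 bases before a start site, 5′ to 3′ on the strand of the gene, with ETS and YY1 matches on either strand in capitals. MRPL51, a highly expressed member, has a pair of ETS matches (chr12:6493263-6493462, reverse strand), and so has MRPL27 (chr17:50373185-50373384, reverse strand), which differed between the lines. MRPS18A (chr6:43687792-43687991, reverse strand), MRPL53 (chr2:74472681-74472880, reverse strand) and MRPL30 (chr2:99180984-99181183, forward strand) each have an ETS match. MRPL36 (chr5:1799838-1800037, reverse strand) has the YY1 match before its start. MRPL32 (chr7:42932176-42932375, forward strand), the member that was lowest in Panc1 knockout relative to wild-type cells, has neither.
MRPL51: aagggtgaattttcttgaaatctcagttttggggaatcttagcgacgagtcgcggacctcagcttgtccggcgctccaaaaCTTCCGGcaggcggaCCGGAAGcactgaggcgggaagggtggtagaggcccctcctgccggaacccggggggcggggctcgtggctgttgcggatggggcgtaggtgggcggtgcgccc
MRPL27: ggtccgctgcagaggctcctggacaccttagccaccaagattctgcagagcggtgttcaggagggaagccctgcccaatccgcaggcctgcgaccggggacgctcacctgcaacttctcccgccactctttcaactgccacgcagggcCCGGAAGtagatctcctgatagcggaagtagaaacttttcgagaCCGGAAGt
MRPS18A: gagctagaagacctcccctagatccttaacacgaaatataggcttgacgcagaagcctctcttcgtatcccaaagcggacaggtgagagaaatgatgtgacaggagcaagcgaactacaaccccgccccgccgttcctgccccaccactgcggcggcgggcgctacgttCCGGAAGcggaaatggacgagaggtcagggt
MRPL53: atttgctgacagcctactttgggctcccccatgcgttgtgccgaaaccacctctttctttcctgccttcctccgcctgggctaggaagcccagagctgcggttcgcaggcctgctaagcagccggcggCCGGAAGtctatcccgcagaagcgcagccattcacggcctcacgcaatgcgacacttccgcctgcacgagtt
MRPL30: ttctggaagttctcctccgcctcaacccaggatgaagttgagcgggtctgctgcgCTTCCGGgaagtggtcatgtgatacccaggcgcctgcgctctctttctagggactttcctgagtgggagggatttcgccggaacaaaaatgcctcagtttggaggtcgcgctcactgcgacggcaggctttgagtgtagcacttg
MRPL36: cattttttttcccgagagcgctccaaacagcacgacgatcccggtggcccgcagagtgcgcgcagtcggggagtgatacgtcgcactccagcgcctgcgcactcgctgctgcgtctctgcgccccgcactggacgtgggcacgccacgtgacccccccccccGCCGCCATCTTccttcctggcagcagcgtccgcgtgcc
MRPL32: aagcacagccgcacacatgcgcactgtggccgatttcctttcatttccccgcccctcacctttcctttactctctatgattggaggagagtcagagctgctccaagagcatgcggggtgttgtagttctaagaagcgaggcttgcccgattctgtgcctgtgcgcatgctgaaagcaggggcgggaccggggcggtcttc

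The levels of the members ranged widely within each group. Most of the proteins are present once per ribosome, and MRPL12 is present in several copies. The lowest and the highest group mean were 3.38 FPKM for MRPS36 and 180.5 FPKM for MRPS12 in Panc1 knockout cells, a ratio of 53.4. In Panc1 wild-type cells they were 5.68 FPKM for MRPL22 and 199 FPKM for MRPS12. In MiaPaCa2 knockout and wild-type cells MRPS18B was lowest, at 5.02 and 4.99 FPKM, and MRPL51 was highest, at 151 and 144 FPKM. The median of the MRPL genes was 30.7 FPKM in Panc1 knockout and 32.1 FPKM in Panc1 wild-type cells, and 35.2 FPKM in MiaPaCa2 knockout and 37.8 FPKM in MiaPaCa2 wild-type cells. The median of the MRPS genes was 24.9 FPKM in Panc1 knockout and 29.4 FPKM in Panc1 wild-type cells, and 36.7 FPKM in MiaPaCa2 knockout and 38.4 FPKM in MiaPaCa2 wild-type cells. Over all 12 libraries the highest MRPL means were those of MRPL51 (122.6 FPKM), MRPL41 (104.4 FPKM), MRPL37 (101.6 FPKM), MRPL3 (94.3 FPKM) and MRPL12 (91.9 FPKM). MRPL3 lies close to the peptidyl transferase centre, and MRPL12 forms the stalk that recruits translation factors. The highest MRPS means were those of MRPS12 (118.9 FPKM), MRPS15 (98.5 FPKM), MRPS24 (90.6 FPKM), MRPS2 (61.9 FPKM) and MRPS6 (53.9 FPKM). The lowest were MRPL22 (7.27 FPKM), MRPL19 (7.43 FPKM) and MRPL42 (11.8 FPKM) among the MRPL genes, and MRPS18B (5.98 FPKM), MRPS36 (6.80 FPKM) and MRPS31 (6.93 FPKM) among the MRPS genes. Together the 78 genes held 0.753 ± 0.0104% of the summed FPKM in Panc1 knockout and 0.851 ± 0.0138% in Panc1 wild-type libraries (SD, n = 3). In MiaPaCa2 they held 0.846 ± 0.0329% in knockout and 0.867 ± 0.00845% in wild-type libraries (SD, n = 3). The knockout and wild-type shares did not overlap in Panc1 and overlapped in MiaPaCa2. The summed FPKM itself differed in Panc1, with 382256 ± 2096 in knockout and 362717 ± 2267 in wild-type libraries (SD, n = 3). The 78 genes summed to 2879 ± 53.3 FPKM in Panc1 knockout and 3086 ± 69.2 FPKM in Panc1 wild-type libraries (SD, n = 3). The part of the total in the change of the share was not tested.

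In Panc1 the knockout cells had lower RNA levels for more of these genes than higher ones. The test was limma on log2(FPKM + 1) over 13340 genes, and a gene is said to have risen or fallen where its Benjamini-Hochberg adjusted p was below 0.05. Of the 78 genes 33 fell, 13 rose and 32 did not pass. Among all genes tested 41.6% fell and 21.8% rose, 63.5% in either direction, so the 33 and 13 of 78 are close to the background. The median log2 change of the members was -0.13, against -0.10 for all genes tested, and single members ran from -1.06 to 0.44. Of the 49 MRPL genes 20 fell and 10 rose, with a median of -0.11, and of the 29 MRPS genes 13 fell and 3 rose, with a median of -0.14. The split depended on scaling. With median-ratio scaling 23 members fell and 21 rose, against 31% and 30.3% of all genes, and the MRPL median was 0.01. With libraries scaled to equal FPKM sums 46 fell and 10 rose, against 48.9% and 17.4% of all genes. The values of the groups did not overlap for 43 members that were below and 13 that were above in the knockout, and 70.1% of all genes tested did not overlap in either direction. Changes are on the log2(FPKM + 1) scale, which understates the change of low genes.

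**Figure D1:**
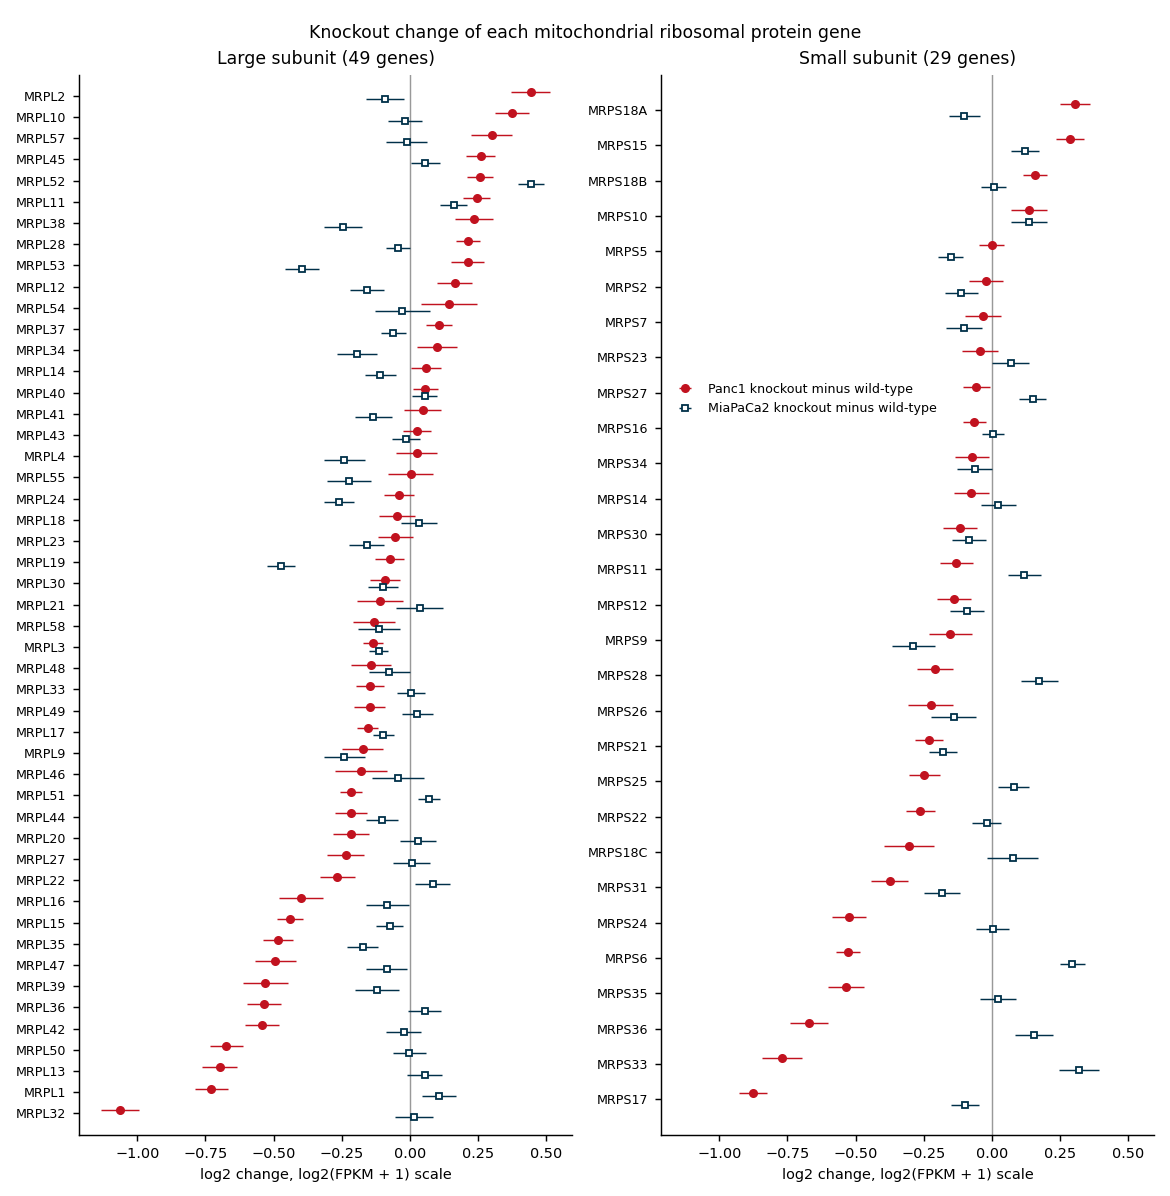
Log2 change of each gene, knockout minus wild-type on the log2(FPKM + 1) scale, for the 49 MRPL genes (left panel) and the 29 MRPS genes (right panel), sorted by the change in Panc1. Points are limma estimates and bars their SE; in Panc1 (filled) the changes run from -1.06 for MRPL32 to 0.44 for MRPL2, and in MiaPaCa2 (open) they run from -0.47 for MRPL19 to 0.44 for MRPL52.

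MRPL32 fell most among the members in Panc1. It encodes a protein that has to be cleaved by the mitochondrial m-AAA protease before it joins the large subunit. Its values were 15.3, 13.6 and 12.2 FPKM in Panc1 knockout libraries, against 29.6, 29.01 and 30.1 FPKM in Panc1 wild-type libraries. The groups lay far apart, and the level averaged 13.7 ± 1.53 FPKM in Panc1 knockout and 29.6 ± 0.563 FPKM in Panc1 wild-type libraries (SD, n = 3; limma log2 change -1.06, SE 0.07, adjusted p = 9.4e-08). The gene lies at chr7:42971975-42988557, forward strand, in GRCh37, as do all gene positions below. MRPL1, whose protein forms the mobile stalk beside the exit site of transfer RNA, had 7.50, 6.998 and 7.28 FPKM in Panc1 knockout libraries, against 12.6, 13.3 and 12.2 FPKM in Panc1 wild-type libraries (limma log2 change -0.73, SE 0.06, adjusted p = 8.9e-07). MRPL13, a protein of the ribosomal core, had 15.8, 13.9 and 14.3 FPKM in Panc1 knockout libraries, against 22.8, 25.1 and 25.3 FPKM in Panc1 wild-type libraries (limma log2 change -0.70, SE 0.06, adjusted p = 1.6e-06). MRPL50 is a protein without a bacterial counterpart. It had 7.30, 7.51 and 8.13 FPKM in Panc1 knockout libraries, against 11.9, 13.7 and 12.8 FPKM in Panc1 wild-type libraries (limma log2 change -0.67, SE 0.06, adjusted p = 1.3e-06). In each of these genes all 3 knockout libraries lay below all 3 wild-type libraries, and the mean fell by 39.9% in MRPL13 and fell by 53.7% in MRPL32. The other 16 MRPL genes that fell ran from a log2 change of -0.54 for MRPL42 to -0.14 for MRPL3. They include MRPL22 (-0.27) near the exit tunnel, MRPL27 (-0.24), whose protein reaches towards the peptidyl transferase centre, and MRPL51 (-0.22).

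MRPS17 and MRPS33 fell most among the MRPS genes. MRPS17 encodes a homologue of a bacterial protein that binds ribosomal RNA of the small subunit. It had 19.2, 19.8 and 18.4 FPKM in Panc1 knockout libraries, against 35.4, 34.7 and 37.8 FPKM in Panc1 wild-type libraries (limma log2 change -0.88, SE 0.05, adjusted p = 3.4e-08). It lies at chr7:56019570-56024193, forward strand, and its exons overlap those of NIPSNAP2 on the same strand, so reads of both could be counted for either. MRPS33 is specific to mitochondrial ribosomes. It had 17.3, 16.1 and 16.9 FPKM in Panc1 knockout libraries, against 26.4, 31.6 and 29.99 FPKM in Panc1 wild-type libraries (limma log2 change -0.77, SE 0.07, adjusted p = 2.4e-06), and lies at chr7:140702410-140715028, reverse strand. The groups of both genes were widely separated. MRPS36, the 2-oxoglutarate dehydrogenase component named above, had 3.84, 3.31 and 2.995 FPKM in Panc1 knockout libraries, against 5.72, 6.05 and 6.07 FPKM in Panc1 wild-type libraries (limma log2 change -0.67, SE 0.07, adjusted p = 4.6e-06). MRPS35, another mitochondria-specific protein, had 38.7, 34.2 and 32.96 FPKM in Panc1 knockout libraries, against 51.7, 49.8 and 52.8 FPKM in Panc1 wild-type libraries (limma log2 change -0.53, SE 0.07, adjusted p = 1.8e-05). MRPS6, which lies at chr21:35445524-35515334, forward strand and shares exons with SLC5A3, had 32.9, 33.7 and 35.1 FPKM in Panc1 knockout libraries, against 48.8, 47.9 and 51.3 FPKM in Panc1 wild-type libraries (limma log2 change -0.53, SE 0.05, adjusted p = 9.6e-07). MRPS24, at chr7:43906157-43909492, reverse strand, had 63.7, 66.3 and 66.1 FPKM in Panc1 knockout libraries, against 97.04, 87.4 and 99.2 FPKM in Panc1 wild-type libraries (limma log2 change -0.52, SE 0.06, adjusted p = 1.3e-05); its exons are shared with the annotated readthrough gene URGCP-MRPS24. In these genes too no knockout library reached the lowest wild-type library.

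The genes that rose in Panc1 did so by smaller amounts. MRPL2, whose protein is part of the ribosomal RNA core around the peptidyl transferase centre, had 23.1, 25.9 and 23.8 FPKM in Panc1 knockout libraries, against 16.9, 18.9 and 17.1 FPKM in Panc1 wild-type libraries (limma log2 change 0.44, SE 0.07, adjusted p = 0.00015). It lies at chr6:43021767-43027176, reverse strand, and its exons overlap those of KLC4. MRPL10, which anchors the MRPL12 stalk, had 25.9, 26.1 and 27.5 FPKM in Panc1 knockout libraries, against 19.6, 20.5 and 20.6 FPKM in Panc1 wild-type libraries (limma log2 change 0.38, SE 0.06, adjusted p = 0.00021). MRPL12 itself averaged 100.8 ± 6.27 FPKM in Panc1 knockout and 89.9 ± 6.28 FPKM in Panc1 wild-type libraries (SD, n = 3; limma log2 change 0.16, SE 0.06, adjusted p = 0.037), and MRPL11, at the base of the same stalk, averaged 62.5 ± 3.22 FPKM in Panc1 knockout and 52.6 ± 0.847 FPKM in Panc1 wild-type libraries (SD, n = 3; limma log2 change 0.24, SE 0.05, adjusted p = 0.00097). The lowest knockout library of MRPL12 lay below its highest wild-type library, and its call was lost with equal FPKM sums (log2 change 0.09, limma adjusted p = 0.19), with the GC and length correction given below (0.03, limma adjusted p = 0.58) and without Panc1 knockout replicate 2 or 3 or wild-type replicate 1 or 2. The call of MRPL12 was also lost without a filter on low values, with quantile normalization and without the mean-variance trend of the fit. MRPL57 rose with 14.3 ± 0.546 FPKM in Panc1 knockout and 11.5 ± 1.02 FPKM in Panc1 wild-type libraries (SD, n = 3; limma log2 change 0.30, SE 0.07, adjusted p = 0.0035). MRPL45, whose protein sits at the membrane side of the exit tunnel, rose with 20.2 ± 1.38 FPKM in Panc1 knockout and 16.7 ± 0.881 FPKM in Panc1 wild-type libraries (SD, n = 3; limma log2 change 0.26, SE 0.05, adjusted p = 0.00092). Of the MRPS genes MRPS18A rose with 31.1 ± 1.42 FPKM in Panc1 knockout and 24.9 ± 0.593 FPKM in Panc1 wild-type libraries (SD, n = 3; limma log2 change 0.30, SE 0.06, adjusted p = 0.00042). MRPS15 rose with 112.3 ± 2.30 FPKM in Panc1 knockout and 91.98 ± 3.59 FPKM in Panc1 wild-type libraries (SD, n = 3; limma log2 change 0.29, SE 0.05, adjusted p = 0.00041). MRPS18B rose with 7.40 ± 0.0697 FPKM in Panc1 knockout and 6.53 ± 0.0371 FPKM in Panc1 wild-type libraries (SD, n = 3; limma log2 change 0.16, SE 0.04, adjusted p = 0.0079), a call that was lost with all libraries scaled to the same FPKM sum (log2 change 0.10, limma adjusted p = 0.092). The knockout libraries of all these genes except MRPL12 lay above the wild-type libraries. The knockout mean was at most 37.9% above the wild-type mean, in MRPL2.

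**Figure D2:**
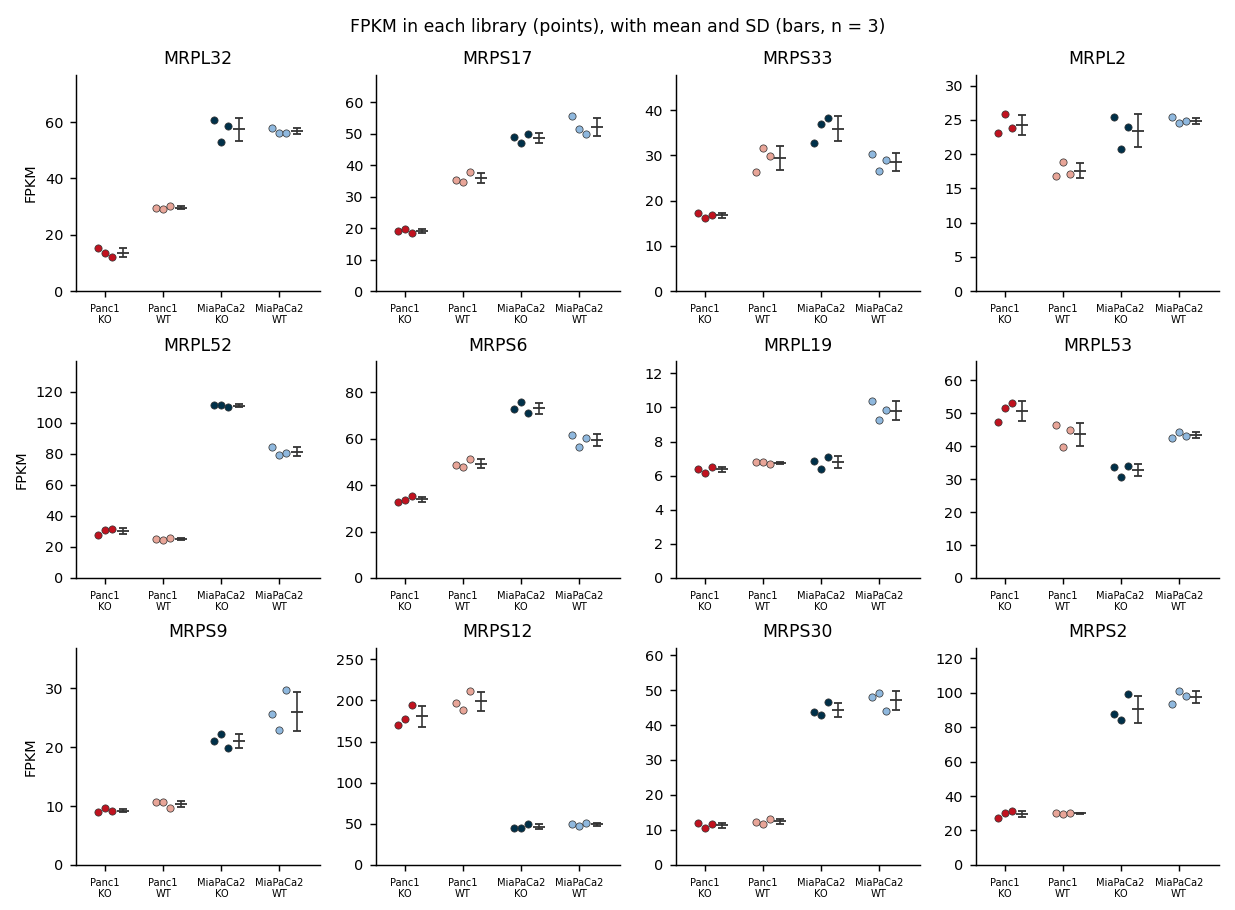
FPKM of 12 genes in each library of the 4 groups, with the mean and SD (n = 3) beside the points and each axis starting at 0. MRPL32, MRPS17 and MRPS33 are low in all Panc1 knockout libraries, MRPL19 and MRPL53 are low in the MiaPaCa2 knockout relative to the MiaPaCa2 wild-type libraries, and MRPS12, MRPS30 and MRPS2 differ between the lines.

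Fewer members passed the test in MiaPaCa2. Of the 78 genes 11 fell, 5 rose and 62 did not pass, while 16.3% of all genes tested fell and 17.8% rose, 34.1% in either direction. The median log2 change of the members was -0.04, against 0.01 for all genes. Of the MRPL genes 8 fell and 2 rose, and of the MRPS genes 3 fell and 3 rose. With median-ratio scaling 15 members fell and 3 rose, against 18.1% and 15.6% of all genes, and with quantile normalization 7 fell and 7 rose, against 15.3% and 16.3%. The values of the groups did not overlap for 20 members that were below and 10 that were above in the knockout, and 43.5% of all genes tested did not overlap. The counts were small and moved with single libraries. The count of MRPL genes that fell, 8 in all, was 3 without knockout replicate 2, 5 without wild-type replicate 2 and 4 without wild-type replicate 3. The count that rose, 2 in all, was 4 without knockout replicate 2 and 1 without knockout replicate 3, wild-type replicate 2 or wild-type replicate 3. The count of MRPS genes that fell, 3 in all, was 0 without wild-type replicate 3.

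MRPL52 rose most and MRPL19 fell most in MiaPaCa2. MRPL52, a mitochondria-specific protein encoded at chr14:23299088-23304246, forward strand, had 111.6, 111.3 and 109.9 FPKM in MiaPaCa2 knockout libraries, against 84.6, 79.2 and 80.2 FPKM in MiaPaCa2 wild-type libraries (limma log2 change 0.44, SE 0.05, adjusted p = 2.6e-05). The groups were far apart, and the mean was higher by 36.4%. MRPL19, at chr2:75873909-75917977, forward strand, encodes a protein at the face of the large subunit that meets the small one. It had 6.86, 6.41 and 7.11 FPKM in MiaPaCa2 knockout libraries, against 10.4, 9.25 and 9.82 FPKM in MiaPaCa2 wild-type libraries (limma log2 change -0.47, SE 0.05, adjusted p = 4.1e-05). Its exons overlap those of GCFC2. MRPL53, at chr2:74699109-74699814, reverse strand, had 33.6, 30.7 and 33.8 FPKM in MiaPaCa2 knockout libraries, against 42.5, 44.3 and 43.1 FPKM in MiaPaCa2 wild-type libraries (limma log2 change -0.40, SE 0.06, adjusted p = 0.00045); it overlaps CCDC142. MRPS33 rose in MiaPaCa2, with 32.8, 36.9 and 38.2 FPKM in MiaPaCa2 knockout libraries, against 30.3, 26.5 and 28.99 FPKM in MiaPaCa2 wild-type libraries (limma log2 change 0.32, SE 0.07, adjusted p = 0.0058). MRPS6 rose as well, with 72.6, 75.6 and 71.04 FPKM in MiaPaCa2 knockout libraries, against 61.4, 56.5 and 60.3 FPKM in MiaPaCa2 wild-type libraries (limma log2 change 0.29, SE 0.05, adjusted p = 0.00041). In these genes no knockout library overlapped the wild-type range. MRPL11 averaged 43.7 ± 2.16 FPKM in MiaPaCa2 knockout and 38.97 ± 1.76 FPKM in MiaPaCa2 wild-type libraries (SD, n = 3; limma log2 change 0.16, SE 0.05, adjusted p = 0.026), and its call was lost with median-ratio scaling (limma adjusted p = 0.07), with MiaPaCa2 fitted alone and without knockout replicate 3 or wild-type replicate 2 or 3. MRPL24, near the exit tunnel, averaged 45.2 ± 0.968 FPKM in MiaPaCa2 knockout and 54.5 ± 4.77 FPKM in MiaPaCa2 wild-type libraries (SD, n = 3; limma log2 change -0.26, SE 0.05, adjusted p = 0.0033). MRPL38, whose protein resembles phosphatidylethanolamine-binding proteins, averaged 61.2 ± 6.93 FPKM in MiaPaCa2 knockout and 72.5 ± 3.13 FPKM in MiaPaCa2 wild-type libraries (SD, n = 3; limma log2 change -0.25, SE 0.07, adjusted p = 0.018). MRPS9, a protein of the head of the small subunit, averaged 21.1 ± 1.14 FPKM in MiaPaCa2 knockout and 26.1 ± 3.38 FPKM in MiaPaCa2 wild-type libraries (SD, n = 3; limma log2 change -0.29, SE 0.08, adjusted p = 0.013). MRPS21 averaged 36.7 ± 1.06 FPKM in MiaPaCa2 knockout and 41.7 ± 2.07 FPKM in MiaPaCa2 wild-type libraries (SD, n = 3; limma log2 change -0.18, SE 0.05, adjusted p = 0.016), and MRPS5, beside the entry of the messenger RNA, averaged 14.5 ± 0.331 FPKM in MiaPaCa2 knockout and 16.2 ± 0.528 FPKM in MiaPaCa2 wild-type libraries (SD, n = 3; limma log2 change -0.15, SE 0.05, adjusted p = 0.023). The calls of MRPL38, MRPS9, MRPS21 and MRPS5 were each lost without at least 1 library or under another setting.

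The lines were compared gene by gene, since they share no libraries. MRPL11 and MRPL52 rose in both lines, and MRPL3, MRPL35 and MRPS21 fell in both, though the call of MRPL3 in Panc1 was lost with median-ratio scaling (-0.02, limma adjusted p = 0.64) and turned round after the GC correction given below. In MiaPaCa2 the calls of MRPL3 and MRPL35 were lost without knockout replicate 2 (limma adjusted p = 0.061 and 0.077) and without wild-type replicate 1 or 3, that of MRPL35 also without knockout replicate 1, and that of MRPS21 without wild-type replicate 3. MRPL38 and MRPL53 rose in Panc1 and fell in MiaPaCa2, and MRPS6 and MRPS33 fell in Panc1 and rose in MiaPaCa2. The call of MRPL53 in Panc1 was lost with equal FPKM sums (0.14, limma adjusted p = 0.051), and that of MRPL38 in MiaPaCa2 without knockout replicate 2 (-0.16, limma adjusted p = 0.054). The difference itself, taken as the Panc1 change minus the MiaPaCa2 change, passed the test in 42 of the 78 members, against 57.4% of all genes tested, and 19 of the 42 passed under every alternative. It was negative in 28 and positive in 14 of them, against 37.4% and 20% of all genes. With median-ratio scaling it was negative in 20 and positive in 22, against 26.4% and 27.6% of all genes, and with equal FPKM sums negative in 34 and positive in 9, against 43.5% and 16.5%. Median-ratio scaling moved the median of all genes for this difference to -0.01, against -0.12 without it. Relative to all genes the MRPL median of the difference was 0.10, and it was 0.04 without MiaPaCa2 knockout replicate 2, 0.01 with quantile normalization, 0.02 with the GC and length correction given below and -0.003 without a filter on low values. MRPS33 had the most negative difference, with changes of -0.77 in Panc1 and 0.32 in MiaPaCa2 (limma log2 difference -1.09, SE 0.10, adjusted p = 4.6e-06). MRPL32 had changes of -1.06 in Panc1 and 0.01 in MiaPaCa2 (limma log2 difference -1.08, SE 0.10, adjusted p = 2.7e-06). MRPS6 had changes of -0.53 in Panc1 and 0.29 in MiaPaCa2 (limma log2 difference -0.82, SE 0.06, adjusted p = 8.5e-07). MRPL53 had the most positive difference, with 0.21 in Panc1 and -0.40 in MiaPaCa2 (limma log2 difference 0.61, SE 0.09, adjusted p = 0.00011). MRPL2, MRPL38, MRPL19 and MRPS18A had positive differences of 0.53, 0.48, 0.40 and 0.41. The counts of positive differences among MRPL genes, 13 in all, were 8 without Panc1 wild-type replicate 2 or without MiaPaCa2 wild-type replicate 1. Among MRPS genes the count of positive differences, 1 in all, was 2 without Panc1 knockout replicate 2 or MiaPaCa2 wild-type replicate 3, and 3 without MiaPaCa2 knockout replicate 3.

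Several members with large changes lie on chromosomes whose genes had a median apart from that of the rest. The 4 members on chromosome 7, MRPL32, MRPS17, MRPS24 and MRPS33, all fell in Panc1, with a median log2 change of -0.82, while the 582 tested genes of that chromosome had a median of -0.34 and those of all other chromosomes -0.09. In MiaPaCa2 the same 4 genes had a median of 0.01. The 6 members on chromosome 6 had a median of 0.15 in Panc1 and 3 of them, MRPL2, MRPS18A and MRPS18B, rose, while the 582 genes of that chromosome had a median of -0.00159 and those elsewhere -0.11. In MiaPaCa2 the 8 members on chromosome 2 had a median of -0.16, and 5 of them fell, while the 788 genes of the chromosome had a median of -0.15 and those elsewhere 0.02. The 4 on its short arm, MRPL19, MRPL33, MRPL35 and MRPL53, had a median of -0.28, close to the -0.31 of the 335 genes of that arm, on which ASAP2 also lies. MRPL35 averaged 35.1 ± 0.837 FPKM in MiaPaCa2 knockout and 39.7 ± 1.10 FPKM in MiaPaCa2 wild-type libraries (SD, n = 3; limma log2 change -0.17, SE 0.06, adjusted p = 0.029), and MRPL33 had a log2 change of 0.00 (limma adjusted p = 0.97). On the long arm MRPS9 and MRPS5 fell, and MRPL30 and MRPL44 had log2 changes of -0.10 and -0.10 (limma adjusted p = 0.2 for each). In Panc1 the 8 members on chromosome 2 had a median of -0.12, and 3 fell and 1 rose. Of the 60 members on other chromosomes than 2, 6 and 7, 26 fell and 9 rose in Panc1, and 6 fell and 4 rose in MiaPaCa2. Beside these counts stand 41.6% and 21.8% of all genes tested in Panc1 and 16.3% and 17.8% in MiaPaCa2. Those shares still include the genes of chromosomes 2, 6 and 7. Chromosomes 2, 6 and 7 were looked at because earlier results of these data had named them. They were not alone: in Panc1 all members also fell on chromosomes 3 (4 genes), 8 (3 genes), 12 (3 genes), 4 (2 genes) and 21 (2 genes), and the 3 on chromosome 12 had a median of -0.53, where all genes of that chromosome had -0.13. Chromosome 5, where 3 of 5 members fell, had a median over all genes of -0.28. The part of these chromosome-wide shifts in the changes of the members was not tested.

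**Figure D3:**
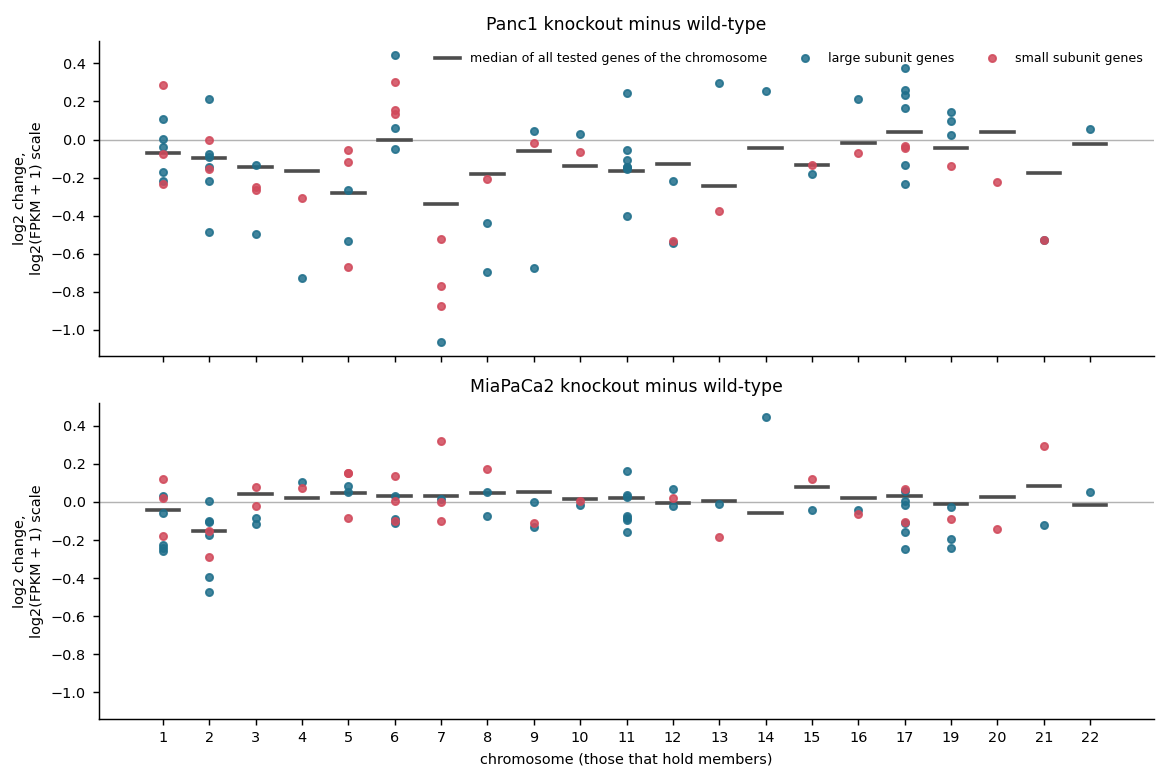
Log2 change of each gene, knockout minus wild-type on the log2(FPKM + 1) scale, by the chromosome it lies on, in Panc1 (top panel) and MiaPaCa2 (bottom panel), with a bar at the median of all tested genes of that chromosome. The 4 genes on chromosome 7 all lie below the bar in Panc1, and the bar of chromosome 2 is the lowest in MiaPaCa2, at -0.15.

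The change in Panc1 also moved with the base composition of the transcript. Across the 78 members the Spearman correlation of the change with the GC content of the canonical transcript was 0.59 in Panc1 and -0.32 in MiaPaCa2, where across 12042 tested genes with a length and GC content it was 0.43 and -0.10. The points share libraries, so these are descriptions. Of the 26 members with the lowest GC content, 34.8 to 44.6%, 19 fell and 0 rose in Panc1, and 63.8% of all genes in that range fell and 8.24% rose. Of the 26 in the middle, 44.9 to 51.9%, 10 fell and 4 rose, and 40.4% of all genes in the range fell and 21.4% rose. Of the 26 with the highest GC content, 52.3 to 66.7%, 4 fell and 9 rose, and 26% of all genes in the range fell and 34.6% rose. The share that fell thus dropped with GC content in the members and in all genes. MRPL1 has a GC content of 36.9%, MRPL50 of 35.01% and MRPS36 of 34.8%, while MRPL2 has 55.1% and MRPL10 54.03%. When each library was corrected by loess for transcript GC content and length, 27 members fell and 18 rose in Panc1, where 30.2% of all genes fell and 30.7% rose. Of these, 22 and 12 were among the 33 and 13 without the correction. The corrected log2 change was -0.86 for MRPL32, -0.75 for MRPS17, -0.52 for MRPS33 and -0.60 for MRPS24, and these still passed. It was -0.34 for MRPL1, -0.38 for MRPL13, -0.22 for MRPL50, -0.22 for MRPS35 and -0.21 for MRPS36, smaller in size than without the correction, and these passed as well. MRPL22, MRPL44, MRPL51, MRPS18C, MRPS28 and MRPS31, which had fallen, were among 10 genes that no longer passed, and MRPL12, which had risen, no longer passed either. Of genes that had not passed in Panc1, MRPS10 (0.40), MRPL19 (0.28), MRPS14 (0.23), MRPS5 (0.19) and MRPL30 (0.16) rose after the correction, and MRPS12 (-0.23), MRPS34 (-0.21), MRPL23 (-0.20), MRPL9 (-0.15) and MRPL41 (-0.11) fell. MRPL3 turned round and rose (0.10), and MRPS18C (0.10), MRPL33 (0.09), MRPL22 (0.02) and MRPS28 (0.0009) turned sign without passing. In MiaPaCa2 the corrected changes of MRPL52 (0.45), MRPL19 (-0.49), MRPL53 (-0.40), MRPS33 (0.30) and MRPS6 (0.28) were close to those without the correction. The part of base composition in the changes was not tested beyond this correction.

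**Figure D4:**
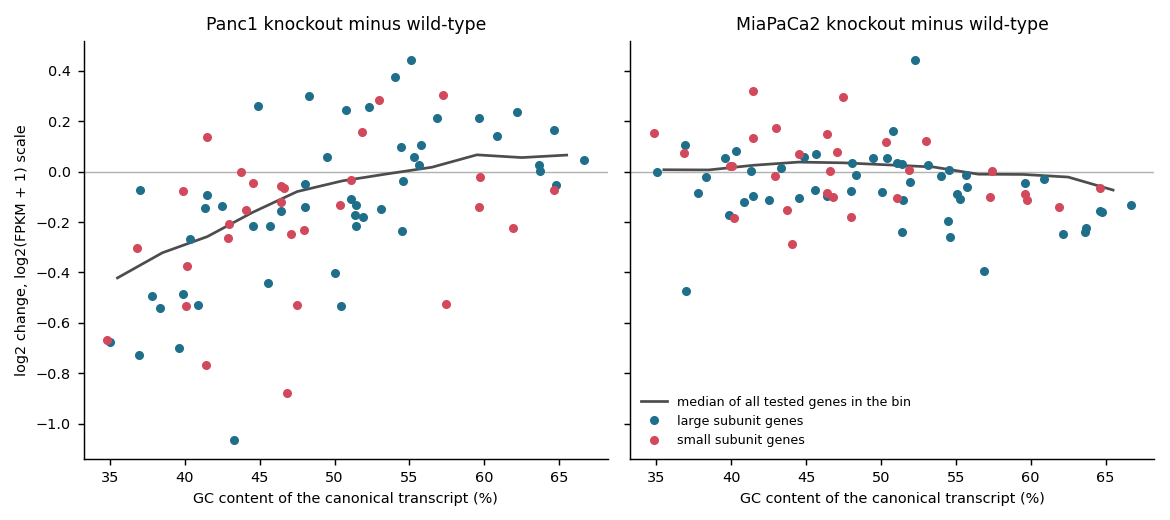
Log2 change of each gene, knockout minus wild-type on the log2(FPKM + 1) scale, against the GC content of its canonical transcript in percent, in Panc1 (left panel) and MiaPaCa2 (right panel); the line joins the medians of all tested genes in bins of GC content. In Panc1 the line climbs from -0.42 in the lowest bin to 0.07 in the highest, and of the 26 genes with the lowest GC content 19 fell.

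Wild-type cells of the lines differed in the levels of most members. Of the 78 genes 42 were lower and 21 higher in Panc1 wild-type than in MiaPaCa2 wild-type cells, while 40.9% of all genes tested were lower and 41.8% higher, 82.7% in either direction. The median log2 difference was -0.24 for the members and 0.00443 for all genes. With quantile normalization the distance from the median of all genes shrank to -0.10, against -0.26 without it, in the MRPL genes and to -0.09, against -0.22, in the MRPS genes. Of the MRPL genes 26 were lower and 16 higher, and of the MRPS genes 16 were lower and 5 higher. The values of the lines did not overlap for 45 members that were lower and 23 that were higher in Panc1, and 84.9% of all genes tested did not overlap. Across the 78 genes the mean levels of both lines had a Spearman correlation of 0.81, a description across genes. MRPS12 encodes a protein of the decoding centre and lies at chr19:39421584-39423808, forward strand. It had 197.4, 187.99 and 211.1 FPKM in Panc1 wild-type libraries, against 50.1, 47.6 and 51.2 FPKM in MiaPaCa2 wild-type libraries (limma log2 difference 1.98, SE 0.06, adjusted p = 5.9e-12). The ranges lay far apart, and the mean in Panc1 was 4.01 times that in MiaPaCa2. MRPL27, at chr17:48445218-48450568, reverse strand, had 45.6, 46.6 and 45.96 FPKM in Panc1 wild-type libraries, against 15.9, 16.4 and 18.1 FPKM in MiaPaCa2 wild-type libraries (limma log2 difference 1.41, SE 0.07, adjusted p = 4e-10). MRPS28 averaged 20.3 ± 0.928 FPKM in Panc1 wild-type and 8.82 ± 0.766 FPKM in MiaPaCa2 wild-type libraries (SD, n = 3; limma log2 difference 1.12, SE 0.07, adjusted p = 3.5e-09). MRPL23, which lines the outlet of the exit tunnel, averaged 87.4 ± 2.80 FPKM in Panc1 wild-type and 45.8 ± 2.24 FPKM in MiaPaCa2 wild-type libraries (SD, n = 3; limma log2 difference 0.92, SE 0.06, adjusted p = 2e-08). MRPL49 (0.78), MRPL42 (0.75), MRPS34 (0.59) and MRPS11 (0.47) were also higher in Panc1, with these log2 differences.

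Other members were several times lower in Panc1 than in MiaPaCa2 wild-type cells. MRPS30, whose product sits in the large subunit, had 12.3, 11.7 and 13.3 FPKM in Panc1 wild-type libraries, against 48.01, 49.1 and 44.1 FPKM in MiaPaCa2 wild-type libraries (limma log2 difference -1.84, SE 0.06, adjusted p = 1.1e-11). The mean in MiaPaCa2 was 3.79 times that in Panc1. MRPS2 had 30.1, 29.6 and 30.3 FPKM in Panc1 wild-type libraries, against 93.6, 100.8 and 98.3 FPKM in MiaPaCa2 wild-type libraries (limma log2 difference -1.67, SE 0.06, adjusted p = 2.9e-11). MRPL52 had 25.2, 24.6 and 25.6 FPKM in Panc1 wild-type libraries, against 84.6, 79.2 and 80.2 FPKM in MiaPaCa2 wild-type libraries (limma log2 difference -1.65, SE 0.05, adjusted p = 2.1e-12). The ranges of these 3 genes were far from overlapping. MRPL30 averaged 7.82 ± 0.279 FPKM in Panc1 wild-type and 22.999 ± 1.74 FPKM in MiaPaCa2 wild-type libraries (SD, n = 3; limma log2 difference -1.44, SE 0.06, adjusted p = 4e-11). MRPL4, which lines the exit tunnel, averaged 42.9 ± 3.16 FPKM in Panc1 wild-type and 110.8 ± 2.33 FPKM in MiaPaCa2 wild-type libraries (SD, n = 3; limma log2 difference -1.35, SE 0.07, adjusted p = 1.7e-09). MRPS9 averaged 10.4 ± 0.548 FPKM in Panc1 wild-type and 26.1 ± 3.38 FPKM in MiaPaCa2 wild-type libraries (SD, n = 3; limma log2 difference -1.24, SE 0.08, adjusted p = 6.3e-09). MRPL45 (-1.06) and MRPS27 (-0.62), a pentatricopeptide repeat protein, were also lower in Panc1, with these log2 differences. The line differences of MRPS12, MRPS30 and MRPS2 were present in the knockout cells too, where MRPS12 averaged 180.5 ± 12.4 FPKM in Panc1 and 46.6 ± 3.18 FPKM in MiaPaCa2 (SD, n = 3), and the knockout did not pass the test for any of the 3 in either line. With equal FPKM sums MRPS12 (log2 change -0.22, limma adjusted p = 0.0052) and MRPS30 (-0.20, limma adjusted p = 0.012) passed as lower in Panc1, and MRPS12 also passed after the GC and length correction.

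**Figure D5:**
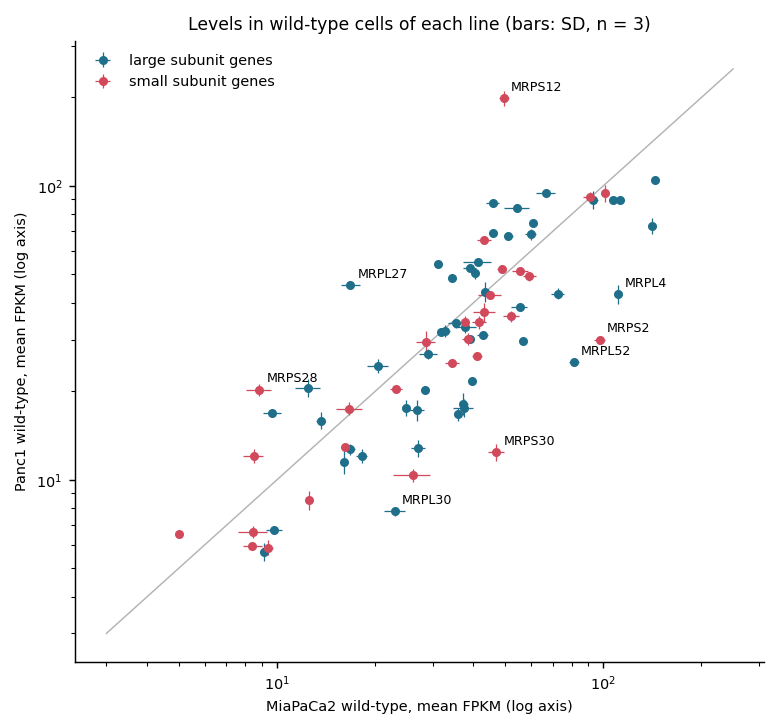
Mean FPKM of each gene in wild-type Panc1 (vertical log axis) against wild-type MiaPaCa2 (horizontal log axis), with the SD of 3 libraries as bars and a line at equal levels. MRPS12 lies above the line at 199 FPKM in Panc1 and 49.6 FPKM in MiaPaCa2, and MRPS30 lies below it at 12.4 FPKM in Panc1 and 47.1 FPKM in MiaPaCa2.

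Members with and without a bacterial counterpart were counted apart. Of 47 genes with a bacterial counterpart 20 fell and 8 rose in Panc1, with a median log2 change of -0.13, and of 30 mitochondria-specific genes 12 fell and 5 rose, also with a median of -0.13. In MiaPaCa2 9 fell and 2 rose among the 47, and 2 fell and 3 rose among the 30. Of all genes tested 41.6% fell and 21.8% rose in Panc1, and 16.3% fell and 17.8% rose in MiaPaCa2, so both classes were close to the background in Panc1. The MRPS18 family has 3 members of the same descent. In Panc1 MRPS18A and MRPS18B rose, while MRPS18C averaged 13.9 ± 0.146 FPKM in Panc1 knockout and 17.5 ± 0.849 FPKM in Panc1 wild-type libraries (SD, n = 3; limma log2 change -0.31, SE 0.09, adjusted p = 0.012) and fell, a call lost with median-ratio scaling (-0.19, limma adjusted p = 0.088) and after the GC and length correction (0.10, limma adjusted p = 0.39). None of the 3 passed in MiaPaCa2. With MRPS18A and MRPS30 counted in the large subunit and MRPS36 left out, 20 of 51 large-subunit genes fell and 11 rose in Panc1, and 12 of 26 small-subunit genes fell and 2 rose.

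Other genes of mitochondrial gene expression were taken from lists written from general knowledge, and their levels are given as mean ± SD of 3 libraries. Of 12 genes of mitochondrial DNA transcription and maintenance 9 fell and 1 rose in Panc1, with a median log2 change of -0.52, and 1 fell and 2 rose in MiaPaCa2, with a median of -0.000722. The 9 of 12 stand beside the 41.6% of all genes tested that fell in Panc1, where 21.8% rose. In MiaPaCa2 16.3% of all genes fell and 17.8% rose. None of the lists was counted again with another scaling or after the GC and length correction. MTERF1 lies on chromosome 7, whose tested genes had a median of -0.34 in Panc1. MTERF1, which binds the terminator site of mitochondrial transcription, averaged 1.43 ± 0.235 FPKM in knockout and 3.55 ± 0.192 FPKM in wild-type libraries (limma log2 change -0.91, SE 0.11, adjusted p = 1.2e-05) in Panc1. TFB2M, a factor of transcription initiation, averaged 4.70 ± 0.548 FPKM in knockout and 8.26 ± 0.466 FPKM in wild-type libraries (limma log2 change -0.71, SE 0.08, adjusted p = 5.4e-06) in Panc1. MTERF2 had a log2 change of -0.67. In MiaPaCa2 POLRMT, the mitochondrial RNA polymerase, fell by 0.29 on the log2 scale, and the helicase TWNK (0.26) and the topoisomerase TOP1MT (0.15) rose. Of 19 translation factors 9 fell and 1 rose in Panc1, and 3 fell and 5 rose in MiaPaCa2, beside the same shares of all genes. The elongation factor GFM1 averaged 11.7 ± 0.667 FPKM in knockout and 17.04 ± 1.24 FPKM in wild-type libraries (limma log2 change -0.50, SE 0.06, adjusted p = 2e-05) in Panc1, and the ribosome recycling factor GFM2 (-0.46) and the initiation factor MTIF3 (-0.40) fell as well. In MiaPaCa2 the initiation factor MTIF2 averaged 9.07 ± 1.03 FPKM in knockout and 14.97 ± 1.29 FPKM in wild-type libraries (limma log2 change -0.67, SE 0.08, adjusted p = 4.6e-05) and LRPPRC, which stabilises mitochondrial messenger RNA, 38.7 ± 2.69 FPKM in knockout and 54.2 ± 3.24 FPKM in wild-type libraries (limma log2 change -0.48, SE 0.07, adjusted p = 0.00019), and both genes lie on chromosome 2; the partner of LRPPRC, SLIRP, had a log2 change of -0.23.

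Of 26 assembly factors of the mitochondrial ribosome 12 fell and 2 rose in Panc1, and 5 fell and 3 rose in MiaPaCa2. Among all genes tested 41.6% fell and 21.8% rose in Panc1, and 16.3% fell and 17.8% rose in MiaPaCa2. MTERF3 averaged 11.7 ± 0.656 FPKM in knockout and 18.9 ± 1.69 FPKM in wild-type libraries (limma log2 change -0.65, SE 0.10, adjusted p = 0.00013) in Panc1, and MALSU1 (-0.50), a factor of the large subunit, and RCC1L (-0.50) fell too; the last pair lie on chromosome 7. In MiaPaCa2 MTG1 (-0.31) and FASTKD2 (-0.26) fell and NGRN (0.29) rose. Of 20 genes that charge mitochondrial transfer RNAs 7 fell and 4 rose in Panc1, and 4 fell and 1 rose in MiaPaCa2. The same shares of all genes stand beside these counts. IARS2 averaged 26.7 ± 1.79 FPKM in knockout and 40.1 ± 1.29 FPKM in wild-type libraries (limma log2 change -0.57, SE 0.05, adjusted p = 5.8e-07) in Panc1, HARS2 (-0.55) fell and GATB (0.37) rose. In MiaPaCa2 SARS2 (-0.22) fell and EARS2 (0.26) rose. Of 5 proteins of the mitochondrial ribosome with other symbols, GADD45GIP1 rose in Panc1 and averaged 95.3 ± 4.42 FPKM in knockout and 72.1 ± 2.001 FPKM in wild-type libraries (limma log2 change 0.40, SE 0.05, adjusted p = 3e-05), while PTCD3 fell in Panc1 (-0.26) and in MiaPaCa2 (-0.35), and AURKAIP1 fell in MiaPaCa2 (-0.28). PTCD3 and FASTKD2 lie on chromosome 2, whose 788 tested genes had a median of -0.15 in MiaPaCa2.

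Of 11 tested regulators linked to these genes 5 fell and 3 rose in Panc1, and 2 fell and 3 rose in MiaPaCa2. Among all genes tested 41.6% fell and 21.8% rose in Panc1, and 16.3% fell and 17.8% rose in MiaPaCa2. ATF4, the main transcription factor of the integrated stress response, averaged 243.1 ± 24.1 FPKM in knockout and 110.1 ± 0.578 FPKM in wild-type libraries (limma log2 change 1.13, SE 0.08, adjusted p = 1.9e-07) in Panc1 and 201.3 ± 12.2 FPKM in knockout and 145.3 ± 15.7 FPKM in wild-type libraries (limma log2 change 0.47, SE 0.08, adjusted p = 0.0008) in MiaPaCa2. DDIT3, another factor of this response, rose with a log2 change of 0.76 in Panc1 and 0.82 in MiaPaCa2. ESRRA, a nuclear receptor that binds promoters of respiratory genes, averaged 12.9 ± 0.903 FPKM in knockout and 22.2 ± 0.741 FPKM in wild-type libraries (limma log2 change -0.74, SE 0.06, adjusted p = 3.2e-07) in Panc1 and 16.4 ± 0.816 FPKM in knockout and 19.9 ± 0.691 FPKM in wild-type libraries (limma log2 change -0.26, SE 0.06, adjusted p = 0.0034) in MiaPaCa2. Of 84 tested genes for proteins of the cytosolic ribosome 70 rose and 3 fell in Panc1, beside 21.8% and 41.6% of all genes. The median log2 change of the 84 was 0.32. In MiaPaCa2, beside 17.8% and 16.3% of all genes, 41 of the 84 rose and 2 fell, with a median of 0.16. Their summed level was 57567 ± 887 FPKM in Panc1 knockout and 44754 ± 394 FPKM in Panc1 wild-type libraries (SD, n = 3), and 58675 ± 2383 FPKM in MiaPaCa2 knockout and 53676 ± 2284 FPKM in MiaPaCa2 wild-type libraries. FPKM is relative to the total, and the part of this sum in the values of other genes was not tested. The members were also counted by the ETS match in the promoter. In Panc1 13 of 29 with it fell and 5 rose, and 15 of 40 without it fell and 6 rose, with medians of -0.14 and -0.10. In MiaPaCa2 4 of the 29 fell and 2 rose, and 6 of the 40 fell and 3 rose, with medians of -0.04 and -0.03. Of the 14 with a YY1 match 5 fell and 3 rose in Panc1, and of the 55 without it 23 fell and 8 rose, with medians of -0.16 and -0.09. In MiaPaCa2 3 of the 14 fell and 0 rose, and 7 of the 55 fell and 5 rose, with medians of -0.0004 and -0.06. These counts stand beside the 41.6% of all genes tested that fell and the 21.8% that rose in Panc1. In MiaPaCa2 the shares were 16.3% and 17.8%. Counts by the SP1, E-box and NRF1 matches are not given here.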

How the data were processed

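The submitters' processing notes and design text name a BGISEQ-500, alignment to hg19 by TopHat2 2.0.14 and FPKM from STAR 2.5.2a. The deposited unit is FPKM per gene symbol, with 1 table for each library. Use of strand is not stated, so reads of overlapping genes cannot be told apart (exon overlap on the other strand in 29 members), nor can those of annotated copies (81 pseudogenes of 36 members). Exons of 16 members overlap those of a gene on the same strand, where strand would not tell the reads apart. FPKM steps of single reads could not be recovered, so no count test was run.

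A symbol absent from a library was taken as 0. The values were tested as log2(FPKM + 1) by limma 3.58.1 (R 4.3.3) with a mean-variance trend and a mean for each of 4 groups (8 residual degrees of freedom). The p-values were adjusted after Benjamini and Hochberg over 13340 genes that reached a mean of 1 FPKM in a line. The fit was tested on simulated data. Positions, lengths and GC content (12042 genes, 90.3%) came from GENCODE release 44 on GRCh37. Members, lists and tests were chosen with earlier results of these data known. Named genes are, per subunit and contrast, the 4 largest increases and decreases among called members without overlap, the extremes in level, members on chromosome 2, the MRPS18 genes, MRPS30, MRPS36, MRPL12, and 3 genes per list and line; others stand beside a result they bear on and were chosen after their values were seen. Counts without members on chromosomes 2, 6 and 7 were added after the data were seen. Some genes are not reported here.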

Additional observations from a re-analysis of the deposited data

Results flagged for a closer look

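The knockout change of 42 of the 78 members differed between Panc1 and MiaPaCa2 by the test of the difference itself in limma. Of all genes tested 57.4% passed the same test, so the members did not stand out by their number. Given here are 13 of the 42, up to 4 with the most negative and 4 with the most positive difference in each subunit. Values are the log2 change in Panc1 minus that in MiaPaCa2, with Benjamini-Hochberg adjusted p over 13340 genes. MRPS33 stood at -1.09 (adjusted p = 4.6e-06), MRPL32 at -1.08 (adjusted p = 2.7e-06) and MRPS17 at -0.78 (adjusted p = 3.2e-06), and these 3 lie on chromosome 7. MRPL1 stood at -0.83 (adjusted p = 9.1e-06), MRPS36 at -0.82 (adjusted p = 2.6e-05), MRPS6 at -0.82 (adjusted p = 8.5e-07), MRPL13 at -0.75 (adjusted p = 2.8e-05) and MRPL50 at -0.67 (adjusted p = 4.1e-05). The call of MRPL50 was lost after the GC and length correction (-0.22, adjusted p = 0.13). The positive differences were 0.61 for MRPL53 (adjusted p = 0.00011), 0.53 for MRPL2 (adjusted p = 0.00071), 0.48 for MRPL38 (adjusted p = 0.0015), 0.41 for MRPS18A (adjusted p = 0.00092) and 0.40 for MRPL19 (adjusted p = 0.00075). In MRPL19 and MRPL53, on the short arm of chromosome 2, the change in MiaPaCa2 was the larger of both.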

How the results depend on the processing

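Of 46 members called in Panc1, 27 kept direction and call under every alternative, 14 lost the call under at least 1 and 5 changed sign after the GC and length correction: MRPL3 (0.10, which passed), MRPL22 (0.02), MRPL33 (0.09), MRPS18C (0.10) and MRPS28 (0.0009). Of 16 called in MiaPaCa2, 6 kept the call (MRPL19, MRPL24, MRPL52, MRPL53, MRPS6 and MRPS33) and 10 lost it under at least 1. Between the wild-type lines 59 of 63 kept it and 4 lost it. For the difference 19 of 42 kept it, 22 lost it under at least 1 and MRPS18C changed sign after the correction (0.01). In Panc1 the MRPL genes that rose numbered 16 and those that fell 13 with median-ratio scaling. The MRPS genes that rose numbered 5 with median-ratio scaling, 5 with quantile normalization, 6 with the GC and length correction and 1 without chromosomes 2, 6 and 7, and those that fell numbered 20 with equal FPKM sums. In MiaPaCa2 the MRPL genes that rose numbered 1 with median-ratio scaling, 5 with array weights and 1 with the line alone. Those that fell numbered 5 with quantile normalization, with the line alone and without the 3 chromosomes. The MRPS genes that rose numbered 9 with array weights and 6 with the GC and length correction. Those that fell numbered 6 with array weights, 5 with the replicate block and 1 without the 3 chromosomes. For the difference between lines, positive MRPL genes numbered 8 with equal FPKM sums. Positive MRPS genes numbered 2 without a filter, 4 with median-ratio scaling, 3 with quantile normalization, 2 without the trend, 3 with array weights, 5 with the GC and length correction, and 0 with subunits by structure or without the 3 chromosomes. The other counts stayed within 1.5 times, and the cause was not tested. The share of all genes that passed moved with the setting too. In Panc1 21.8% of all genes rose, against 29.5% with quantile normalization and 30.7% with the GC and length correction. There 41.6% fell, against 32% and 30.2%. For array weights, the line alone and the replicate block the share of all genes is not given here.

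With each library left out in turn, Panc1 gave 9 to 11 MRPL genes that rose, 18 to 23 that fell, 3 to 4 MRPS genes that rose and 11 to 14 that fell. MiaPaCa2 gave 1 to 4, 3 to 10, 2 to 4 and 0 to 4. The wild-type lines gave 15 to 17, 25 to 26, 5 to 6 and 14 to 17, and the difference 8 to 13, 12 to 20, 1 to 3 and 9 to 12. A group of 2 is then assumed to vary like the others. The replicate number was not used as a pairing in the main fit. Deviations of same-numbered libraries correlated at 0.0173 to 0.0777 in Panc1 and -0.1651 to -0.0019 in MiaPaCa2. Those of libraries with other numbers correlated at -0.0966 to 0.0579 in Panc1 and -0.1915 to 0.2542 in MiaPaCa2. A pairing under other numbers was not tested. Depth is unknown, and no value above carries a counting error.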
